A study of Mus musculus with 3 samples.

Results

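The HSP70 family chaperones were studied in 5TGM1.BRE cells, an engraftable mouse myeloma line that resists bortezomib, a drug that blocks the proteasome. The 10 genes, Hspa1a, Hspa1b, Hspa2, Hspa4, Hspa4l, Hspa5, Hspa8, Hspa9, Hspa13 and Hspa14, were taken by symbol, and all 10 were found among the 24467 gene symbols of the count tables. Per the labels' protocols, the line came from the bone marrow of C57Bl/KaLwRij mice, was kept in 10 nM bortezomib in IMDM with 20% serum, and spent 72 h or more without it before polyadenylated RNA was prepared from 10000000 cells. There were 3 libraries in 1 group, replicates 1, 2 and 3, and the cell type label of replicate 1 does not mention selection in the drug while its title and growth protocol do. Sensitive or non-engrafting cells were not analysed here, so levels are described and no effect of the drug or of resistance was measured. Nothing in the labels tells whether the replicates came from separate cultures or whether the line is 1 clone. SDs therefore give the spread among these samples, which may be technical. In bulk RNA, fewer cells with a transcript and less of it per cell cannot be told apart.

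The libraries held 62303493, 45705994 and 59402218 counts for replicates 1, 2 and 3. Replicate 3 stood apart: a chi-square test of homogeneity over genes with at least 20 counts gave 65.1 and 44.4 per degree of freedom for its pairs with replicates 1 and 2, against 4.0 for replicates 1 and 2. The cells carried plasma cell markers, of which 9 of 10 reached 1 CPM (counts per 1000000 counts of the library) in all libraries, with summed levels of 4672, 4572 and 4542 CPM in replicates 1, 2 and 3. The plasma cell marker that did not was Tnfrsf17, at 0.658, 0.416 and 0.673 CPM in replicates 1, 2 and 3. Of 10 B cell markers 2 reached 1 CPM in all libraries, Ms4a1 and Fcer2a, the latter at 6.48, 1.62 and 4.14 CPM. Bcl6 and Cr2 were at 0. None of 10 T and NK cell markers and none of 10 myeloid markers did, with summed levels of 0.219 to 0.482 CPM and 0.350 to 0.640 CPM, and Cd3e, Ncr1, Gzmb, S100a8 and S100a9 were at 0. Of 10 stromal and endothelial markers 1 did, Pecam1. The summed stromal level was 6.15 to 6.90 CPM, and Col1a2 was at 0.

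HSP70 proteins bind stretches of unfolded protein and let them go in a cycle driven by ATP. J-domain proteins bring clients and start ATP hydrolysis, and nucleotide exchange factors end the cycle by releasing ADP. The cytosol, the endoplasmic reticulum (ER) and the mitochondria each have their own HSP70. Plasma cells and myeloma cells fold large amounts of antibody in the ER, where Hspa5, also called BiP, holds unassembled heavy chains. Inducible HSP70, the product of Hspa1a and Hspa1b, is the textbook target of heat shock factor and is known to rise when the proteasome is blocked.

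The ends of the coding sequences are shown because they separate the cytosolic proteins from the ER protein. Cytosolic HSP70 ends in a short tail that cochaperones with tetratricopeptide repeats read, and Hspa5 ends in a signal that returns it to the ER. The last 33 coding bases are given 5′ to 3′ from GENCODE M21 transcripts (GRCm38), with the last 4 codons and the stop codon in capitals. On the plus strand lie those of Hspa8 (chr9:40805085-40805117), Hspa2 (chr12:76406403-76406435) and Hspa5 (chr2:34776081-34776113), and on the minus strand those of Hspa1a (chr17:34970000-34970032) and Hspa1b (chr17:34957079-34957111).
Hspa8: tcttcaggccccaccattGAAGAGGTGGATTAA
Hspa2: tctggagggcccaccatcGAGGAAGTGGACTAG
Hspa1a: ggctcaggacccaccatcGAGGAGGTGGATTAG
Hspa1b: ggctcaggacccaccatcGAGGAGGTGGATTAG
Hspa5: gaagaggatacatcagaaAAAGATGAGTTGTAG
The tails of Hspa1a and Hspa1b were identical. Over the whole coding sequence these 2 genes were 99.6% identical, with 8 differing bases among 1926 aligned. Hspa8 was 75.4% identical to Hspa2 and 74.6% to Hspa1a, and 64.7% to Hspa5 and 56.4% to Hspa9. Hspa4 and Hspa4l were 66.3% identical to each other, and Hspa4 was 48.9% identical to Hspa8. The coding sequences ran to 842 codons in Hspa4 and 838 in Hspa4l, 646 in Hspa8, 655 in Hspa5, 509 in Hspa14 and 471 in Hspa13. Hspa1a, Hspa1b and Hspa2 each had 1 exon in the transcript used, and Hspa8 and Hspa5 had 9.

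Near-identical sequence bears on the counts, since the authors' treatment of reads that match several genes is not given in the sources used here. Of the windows of 50 bases along each gene's main coding transcript, 74.8% in Hspa8, 66.3% in Hspa1a and 62.3% in Hspa1b also occurred in an annotated transcript of another gene, on either strand. With 100 bases the shares were 63.4, 56.5 and 49.9%. For Hspa8 the sharing transcripts came from 13 genes, among them Gm15459 and Gm6210. For Hspa1a they came from Hspa1b, Hspa1l, Gm10501 and Gm20481. Hspa14 shared 15.6% of its windows of 50 bases with Gm45902, which overlaps it on the same strand, Hspa9 shared 4.10% with the pseudogene Hspa9-ps1, and Hspa4l shared 0.626% with many genes. Hspa2, Hspa4, Hspa5 and Hspa13 shared none. Hspa1a still had 722 windows of 50 bases in its 3′ untranslated region that no other annotated transcript holds, and Hspa1b had 594. Gm20481 lies opposite Hspa1a over 2225 of its 2967 bases, and without a stated strand setting reads from the 2 cannot be told apart. Neither Gm20481 nor Gm45902 has a row in the tables used here.

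**Figure D1:**
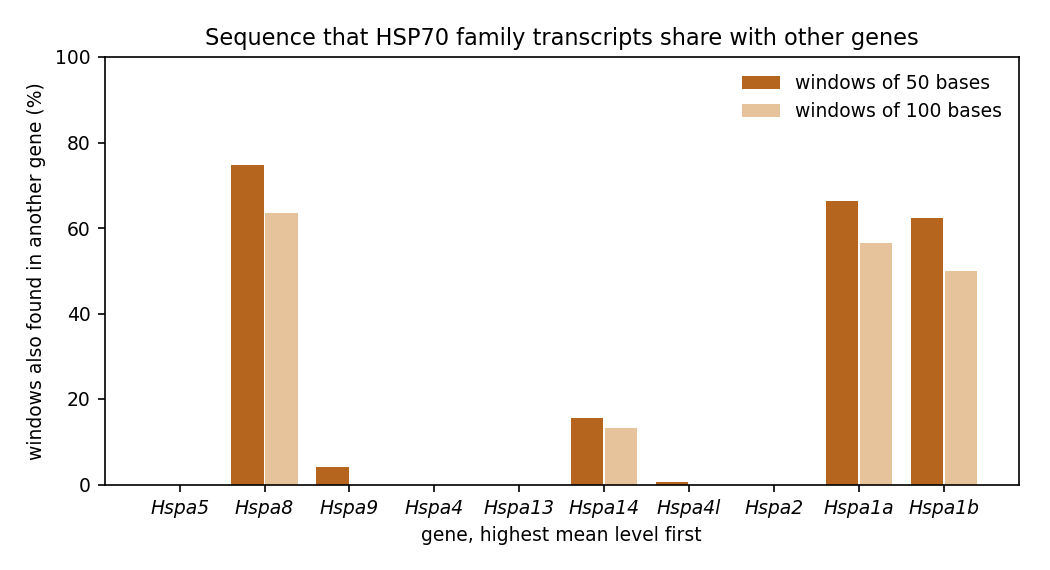
Share of 50-base (dark) and 100-base (light) windows of each gene's main coding transcript that also occur in an annotated transcript of another gene, in percent, with genes ordered by their mean level. Hspa8, Hspa1a and Hspa1b stand at 62.3 to 74.8% for 50 bases, and every other gene at 15.6% or less.

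The 250 bases before the start site are shown for the genes at the ends of the range, from the RefSeq promoter table (GRCm38.p6), which had entries for 7 of the 10 genes and none for Hspa8, Hspa9 and Hspa13. The windows are chr17:34972157-34972406 on the minus strand for Hspa1a, chr17:34959239-34959488 on the minus strand for Hspa1b and chr2:34771840-34772089 on the plus strand for Hspa5. Capitals mark a 2-unit heat shock element in Hspa1a and Hspa1b and an ER stress element in Hspa5.
Hspa1a: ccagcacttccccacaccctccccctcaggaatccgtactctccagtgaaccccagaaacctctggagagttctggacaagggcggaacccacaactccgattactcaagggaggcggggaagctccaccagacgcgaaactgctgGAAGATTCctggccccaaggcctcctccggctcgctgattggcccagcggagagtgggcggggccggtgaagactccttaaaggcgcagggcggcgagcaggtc
Hspa1b: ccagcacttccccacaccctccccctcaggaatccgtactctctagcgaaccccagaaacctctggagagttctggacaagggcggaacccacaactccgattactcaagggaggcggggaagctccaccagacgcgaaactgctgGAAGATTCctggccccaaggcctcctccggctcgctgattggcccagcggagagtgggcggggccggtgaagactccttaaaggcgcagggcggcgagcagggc
Hspa5: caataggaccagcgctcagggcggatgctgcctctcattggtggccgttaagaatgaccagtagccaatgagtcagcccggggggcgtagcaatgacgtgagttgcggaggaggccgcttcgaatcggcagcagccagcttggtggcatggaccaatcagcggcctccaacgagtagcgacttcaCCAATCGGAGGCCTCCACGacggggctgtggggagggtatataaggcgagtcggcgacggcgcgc
The 2-unit heat shock element was searched as GAANNTTC and as TTCNNGAA, each its own reverse complement. The ER stress element was searched on both strands as CCAAT and CCACG with any 9 bases between them. GAANNTTC occurred from base -104 to -97 before the start site in both Hspa1a and Hspa1b, in none of the other 5 promoters, and in 6.69% of all 32851 promoter windows. TTCNNGAA occurred in none of the 7 and in 7.17% of all. No 3-unit element, GAANNTTC followed by NNGAA on either strand, was found in the 7, against 0.466% of all. The ER stress element occurred in Hspa5 from base -65 to -47, in none of the other 6, and in 37 promoters or 0.113% of all. It contains a CCAAT box, 1 of 4 in the Hspa5 window, and a CCAAT box on either strand occurred in 33.8% of all windows. The windows of Hspa1a and Hspa1b differed at 3 bases, C44T, T47C and T249G, written from Hspa1a to Hspa1b and counted from 1 at the 5′ end. These matches describe letters in the window and not binding. The RefSeq start sites differ from the starts of some gene spans given below. The window of Hspa4l (chr3:40745363-40745612) lies inside its gene span, and those of Hspa2 (chr12:76404120-76404369) and Hspa5 reach into theirs. A missing match there does not describe all sequence before these genes.

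Of the 10 genes, 8 reached 1 CPM in all libraries, against 40.9% of all genes listed, and the other 2, Hspa1a and Hspa1b, had 0 to 2 counts per library. Together the 10 genes took 6137, 6026 and 5742 CPM in replicates 1, 2 and 3, or 0.597% of all counts on average. Levels are given below in CPM for each gene, and genes are compared with each other only in CPM per kilobase of exon, with the union of a gene's exons in GENCODE M21 as its length.

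Hspa5, the HSP70 of the ER, had 2395, 2393 and 2401 CPM in replicates 1, 2 and 3, from 149222, 109367 and 142639 counts. The libraries were nearly equal, with a coefficient of variation of 0.182%, against a median of 7.23% over the 10016 genes at 1 CPM or more and 0.276% for counting error alone. That closeness was seen with scaling by library total, while with TMM scaling the level was 2397 ± 33.8 CPM (SD, n = 3). Per kilobase Hspa5 stood at 567 ± 1.03 CPM (SD, n = 3), the highest of the family and 65th of 24173 genes with a length. Hspa5 (ENSMUSG00000026864) spans chr2:34771970-34777547 on the plus strand.

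Hspa13, a shorter HSP70-like protein of the ER whose part in folding is less clear, had 261, 248 and 220 CPM in replicates 1, 2 and 3. All 3 libraries lay near each other, with replicate 3 the lowest. Per kilobase it reached 35.5 ± 3.09 CPM (SD, n = 3), and its log2 ratio to Hspa5 was -4.00 ± 0.13, a 16.0-fold lower level in 3 of 3 libraries (-3.31 on the log2 scale without length correction). Hspa13 spans chr16:75745431-75767104 on the minus strand.

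Hspa8, the constitutive HSP70 of the cytosol, which also takes proteins to the lysosome and uncoats clathrin vesicles, had 1488, 1448 and 1343 CPM in replicates 1, 2 and 3. Replicate 3 was the lowest of the 3. Per kilobase it stood at 332 ± 17.4 CPM (SD, n = 3), second in the family. Hspa5 exceeded it by 0.77 ± 0.08 on the log2 scale per kilobase, 1.71-fold, in 3 of 3 libraries. This value rests on the length taken and on the count of Hspa8, 74.8% of whose windows of 50 bases occur in other genes. The part of such shared reads in the ratio was not tested. The log2 ratio was 0.13 with the longest coding transcript of each gene, an alternative chosen after seeing the data. Hspa8 (chr9:40800984-40810087, plus strand) also hosts 3 small nucleolar RNAs, Snord14c, Snord14d and Snord14e, which had 24 to 150 counts per library.

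Hspa2, an HSP70 best known for its high level in male germ cells, was low. It had 8.43, 8.16 and 8.03 CPM in replicates 1, 2 and 3, from 525, 373 and 477 counts. The libraries were close, with a coefficient of variation of 2.46% against 4.72% for counting error alone. Per kilobase it was 107-fold below Hspa8, at a log2 ratio of -6.74 ± 0.05 (SD, n = 3), which was -7.52 with the longest coding transcript as the length. Hspa2 spans chr12:76404176-76406938 on the plus strand.

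The inducible genes Hspa1a and Hspa1b were at the limit of detection. Hspa1a had 1, 2 and 0 counts in replicates 1, 2 and 3, and Hspa1b had 1, 0 and 1. Where a library had 0 counts, its depth still allows as many as 3, which is 0.0505 CPM for Hspa1a in replicate 3 and 0.0656 CPM for Hspa1b in replicate 2. These limits and the intervals reflect counting error alone, because copies made by PCR are counted as if independent. Over all libraries the 2 genes together had 5 counts, or 0.0299 CPM with an exact 95% Poisson interval of 0.00970 to 0.0697 CPM. Hspa8 exceeded them 32017-fold per kilobase over all libraries, with a counting interval of 13720 to 98607. Reads that match both copies may have been dropped or split in the authors' counting, which was not tested. Both genes have sequence in the 3′ untranslated region that no other annotated transcript shares, as given above.

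Hspa1b and Hspa1a lie next to each other at chr17:34956436-34959238 and chr17:34969190-34972156, both on the minus strand, beside Hspa1l, a germ cell HSP70 that had 4, 3 and 3 counts. The nearest counted protein-coding genes on either side were expressed in part. Neu1, a lysosomal sialidase, was at 104 ± 7.89 CPM and Ehmt2, a histone methyltransferase, at 145 ± 13.0 CPM on the one side (SD, n = 3 for each), where Slc44a4, a choline transporter-like gene, had 3, 4 and 2 counts. On the other side Lsm2, a splicing factor, was at 132 ± 13.6 CPM, Vars, the valyl-tRNA synthetase, at 296 ± 18.4 CPM and Vwa7 at 1.81 ± 0.363 CPM (SD, n = 3 for each).

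Hspa4 belongs to the Hsp110 branch of the family, whose members serve as nucleotide exchange factors for HSP70. It had 661, 655 and 593 CPM in replicates 1, 2 and 3, with replicate 3 the lowest. Per kilobase it stood at 115 ± 6.80 CPM (SD, n = 3), below Hspa9 and 2.88-fold below Hspa8. The log2 ratio to Hspa8 was -1.53, and -2.11 with the longest coding transcript. Hspa4 spans chr11:53259814-53300457 on the minus strand.

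Its paralog Hspa4l had 50.4, 51.3 and 39.6 CPM in replicates 1, 2 and 3. Replicate 3 was again the lowest, and the coefficient of variation, 13.8%, was the largest of the 8 expressed genes. Per kilobase Hspa4l was 29.0-fold below Hspa4 (log2 ratio -4.86 ± 0.12, SD, n = 3), and the log2 ratio was -3.76 without length correction. Hspa4l spans chr3:40744495-40796103 on the plus strand and had the longest exon union of the family, 11792 bases. Hsph1, the heat-inducible Hsp110 gene and no member of the list, was 10.2-fold below Hspa4 per kilobase (log2 ratio -3.35 ± 0.08, SD, n = 3), with a log2 ratio of -2.67 for the longest coding transcripts.

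Hspa9, also called mortalin, is the HSP70 of mitochondria, where it pulls proteins through the inner membrane and takes part in the building of iron-sulfur clusters. It had 1148, 1096 and 1014 CPM in replicates 1, 2 and 3. Replicate 3 was the lowest. Per kilobase it stood at 252 ± 15.8 CPM (SD, n = 3), 1.32-fold below Hspa8 and 2.25-fold below Hspa5. The log2 ratio to Hspa8 was -0.40, and -0.74 with the longest coding transcript. Hspa9 spans chr18:34937414-34954357 on the minus strand.

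Hspa14, which works with the J-domain protein Dnajc2 at the ribosome, had 126, 126 and 124 CPM in replicates 1, 2 and 3. The libraries lay together, with a coefficient of variation of 0.816% against 1.21% for counting error alone. Per kilobase it stood at 30.9 ± 0.252 CPM (SD, n = 3), 10.7-fold below Hspa8 (log2 ratio -3.42, but -2.69 when the longest transcript gives the length), and its partner Dnajc2 was at 65.0 ± 1.04 CPM per kilobase (SD, n = 3). Hspa14 spans chr2:3488850-3512814 on the minus strand.

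**Figure D2:**
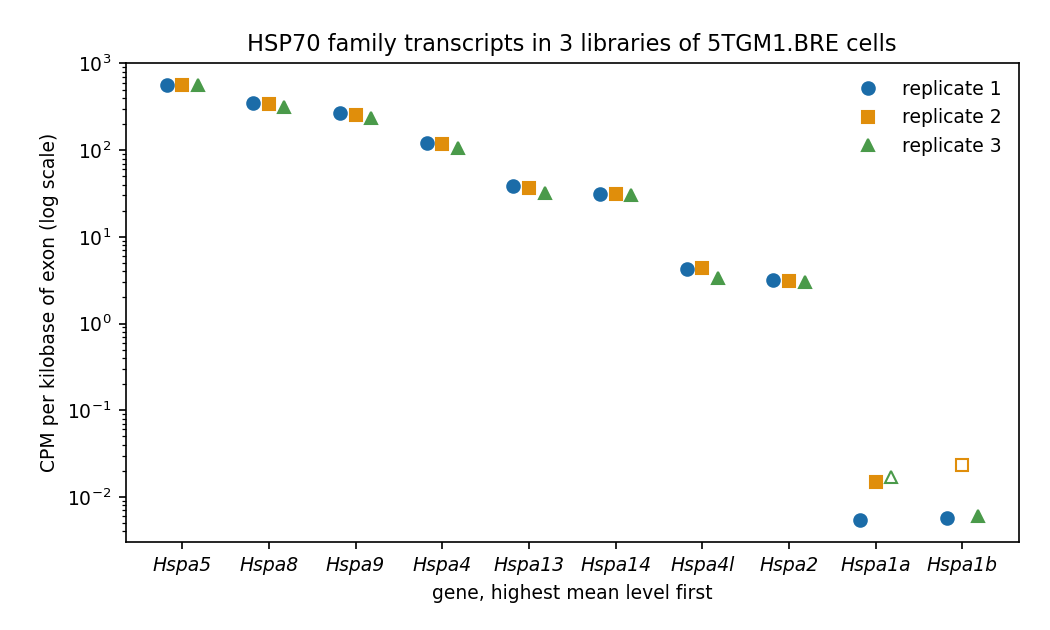
Level of each HSP70 family gene in CPM per kilobase of exon on a log scale, with 1 point per library (circle, square and triangle for replicates 1, 2 and 3). Open points are libraries with 0 counts, drawn at the level that 3 counts would give. Hspa5 leads at 567 CPM per kilobase on average, and Hspa1a and Hspa1b lie far below the other 8.

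By mean log2 level per kilobase the order was Hspa5, Hspa8, Hspa9, Hspa4, Hspa13, Hspa14, Hspa4l, Hspa2, Hspa1a and Hspa1b. In 8 of the 9 neighbouring pairs the upper gene was higher in 3 of 3 libraries. An exact sign-flip permutation test, two-sided, returned p = 0.25 for each of these pairs (n = 3 libraries, 0.281 after Benjamini-Hochberg adjustment over 9 pairs), the smallest p that 3 libraries allow, so no pair could pass 0.05. Hspa1a and Hspa1b did not differ beyond their spread, at a log2 difference of 0.16 ± 1.97 (SD, n = 3, exact sign-flip permutation p = 1). The difference between Hspa13 and Hspa14 was small, 0.20 ± 0.12 on the log2 scale per kilobase (SD, n = 3), and turned to -0.29 with the longest transcript as the length. Without length correction it was 0.95. Hspa4l exceeded Hspa2 by 0.35 ± 0.18 (SD, n = 3), 1.28-fold, and by 2.51 without length correction. The same exact permutation test over 13 chosen ratios also gave p = 0.25 for each (n = 3, 0.25 after adjustment), with 1 direction in 3 of 3 libraries for all 13.

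Grouped by the place and type of the protein, the ER genes Hspa5 and Hspa13 held 44.0, 44.6 and 46.4% of the family's counts per kilobase in replicates 1, 2 and 3. The mean of 45.0 ± 1.29% (SD, n = 3) was the largest share of the 5 groups, and replicate 3 had the highest value. Cytosolic HSP70, made up of Hspa8, Hspa2, Hspa1a and Hspa1b, held 24.99 ± 0.512%, nearly all of it from Hspa8 at 24.8 ± 0.514% (SD, n = 3 for each). Mitochondrial Hspa9 held 18.8 ± 0.586%, the Hsp110 genes Hspa4 and Hspa4l 8.89 ± 0.285% and Hspa14 2.31 ± 0.0584% (SD, n = 3 for each). Hspa4, Hspa4l and Hspa14 also act in the cytosol but were grouped apart. The cytosolic share below is thus that of cytosolic HSP70 alone. The lead of the ER is over these 5 groups and not over the whole cytosol. Without replicate 3 the ER share was 44.3% and the cytosolic share 25.3%. With the longest coding transcript as the length the ER share was 37.8% and the cytosolic share 31.9%. The cytosolic share rests on the count of Hspa8, and the part of reads shared with other genes in it was not tested.

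**Figure D3:**
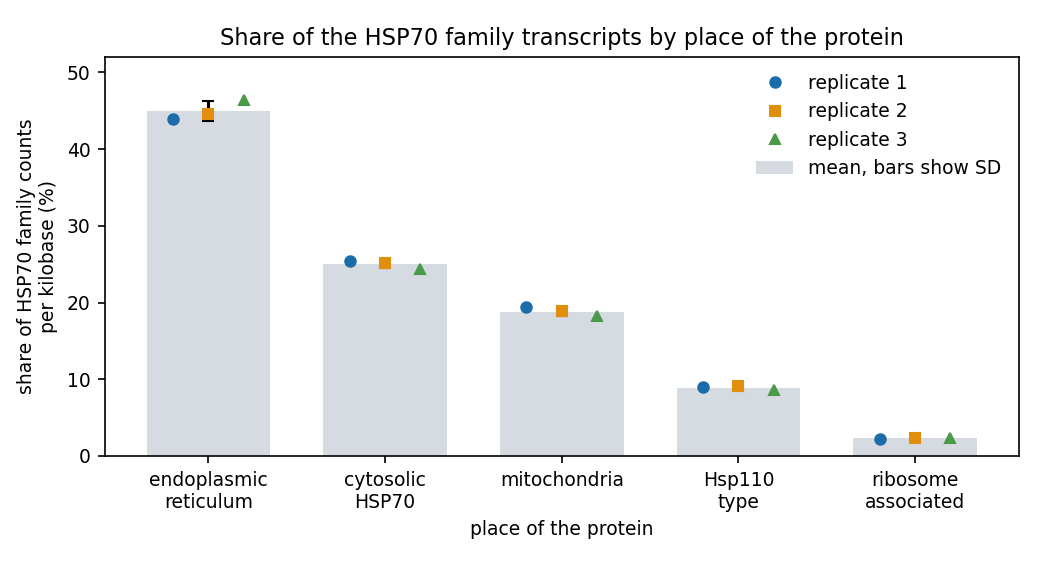
Share of the family's counts per kilobase held by each group of genes, in percent. The Hsp110 genes and Hspa14, which also act in the cytosol, are drawn apart from cytosolic HSP70. Bars give the mean of 3 libraries with the SD, and points give replicates 1, 2 and 3. The ER genes hold 44.0 to 46.4% and the cytosolic HSP70 genes 24.4 to 25.4%.

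Each library was set against the other 2 with edgeR's quasi-likelihood test over the 11308 genes that passed its filter on low counts, with TMM scaling and Benjamini-Hochberg adjustment at 0.05. Of the 10 family genes 8 passed the filter, and Hspa1a and Hspa1b did not. In replicate 3, 4 of the 8 were lower and 0 were higher than in replicates 1 and 2, against 26.8% of all genes lower and 24.8% higher. In either direction the call was thus made for 4 of 8 family genes, against 51.6% of all genes, a share close to that of genes at large. For replicates 1 and 2 edgeR called 0 of the 8 genes, with 0 at an unadjusted p under 0.05 and 0 by DESeq2, against 0.0796 and 0.0531% of all genes called. In each test 1 library stood alone and the spread came from the other 2, so these calls describe libraries. For replicates 1 and 2 that spread held replicate 3, which had already been seen to stand apart. The SE of the log2 difference of Hspa5 was 0.18 and 0.22 there, against 0.05 for replicate 3. These small differences therefore do not show that replicates 1 and 2 were alike.

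The 4 lower genes were Hspa4l, Hspa13, Hspa9 and Hspa4. Hspa4l had 39.6 CPM in replicate 3, against 50.4 and 51.3 CPM in replicates 1 and 2, a log2 difference of -0.33 ± 0.05 (SE, adjusted p = 6.4e-09, edgeR). Hspa13 was lower by a log2 difference of -0.18 ± 0.04 (SE, adjusted p = 3.78e-05, edgeR). Hspa4 and Hspa9 were lower by smaller amounts, with log2 differences of -0.12 ± 0.04 and -0.12 ± 0.05 (SE) and adjusted p of 0.0172 and 0.0274 by edgeR. The difference of Hspa8 was -0.10 ± 0.05 (SE) and did not pass, at an adjusted p of 0.0775 by edgeR, while DESeq2 gave 0.0322. Hspa5, Hspa14 and Hspa2 had log2 differences of 0.04, 0.01 and -0.02 in replicate 3, none of which passed.

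Exon length moved with this result. The 4 lower genes were the longest of the 8, with exon unions of 4310 to 11792 bases, and the other 4 had 2644 to 4301. By longest transcript this order does not hold, with 3049 bases for Hspa9 against 3672 for Hspa5 and 3158 for Hspa8. How far the result rests on the length taken was not tested. Over all genes tested, those with exon unions longer than the median of 4302 bases had a median log2 difference of -0.13 in replicate 3, and the shorter ones 0.13. With the trend on length removed from the fit, 0 of the 8 genes passed by edgeR, against 31.5% of all genes, with adjusted p of 0.0657 to 0.408 for the 4. The log2 differences of Hspa4l, Hspa13 and Hspa4 were then -0.10, -0.06 and -0.05. That of Hspa9 was -0.11, nearly as large as before, and that of Hspa8 was -0.09. The SE of this refit is not given here, so a lost call does not by itself show a smaller difference. What sets the trend was not tested.

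**Figure D4:**
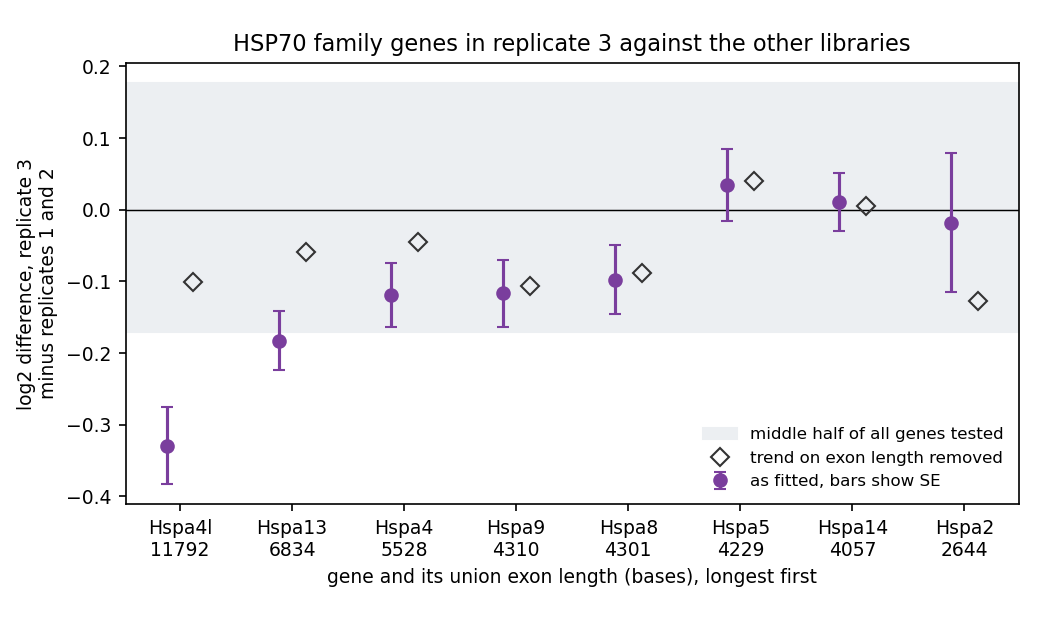
Log2 difference between replicate 3 and replicates 1 and 2 for the 8 family genes tested, from the longest to the shortest exon union. Filled points are the fitted values with their SE, open diamonds the values with the trend on exon length removed, and the band runs between the quartiles of all genes. The 4 genes with the longest exon unions lie lowest as fitted, from -0.33 to -0.12.

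The partners of the family were nearly all expressed. These lists were written from textbook roles, and in replicate 3 their calls stand against 24.8% of all genes higher and 26.8% lower. Since exon length moved with the calls in this library, each count is also given with the length trend removed, where 15.9% of all genes were higher and 15.6% lower. Of 20 J-domain genes 19 reached 1 CPM in all libraries, the exception being Dnaja4 with 0, 0 and 1 counts. The highest per kilobase were Dnaja2, a cytosolic partner of Hspa8, at 156 ± 4.30 CPM, Dnajb11, an ER partner of Hspa5, at 115 ± 3.8 CPM and Dnajc2 (SD, n = 3 for each). Dnajb1, the heat-inducible cytosolic partner, was at 19.7 ± 0.320 CPM per kilobase (SD, n = 3). By edgeR 5 of the 19 tested J-domain genes were higher and 4 lower in replicate 3, and 4 higher and 2 lower with the length trend removed.

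Of 12 nucleotide exchange factors 11 reached 1 CPM, and Bag2 had 10, 15 and 16 counts. Among these 12, Bag1, which ties HSP70 to the proteasome, led at 132 ± 4.98 CPM per kilobase. It was followed by Hyou1, an exchange factor of Hspa5, at 77.2 ± 9.04 CPM and Bag5 at 26.8 ± 0.190 CPM (SD, n = 3 for each). The family members Hspa4 and Hspa4l were not in this list. They stood at 115 ± 6.80 and 3.99 ± 0.552 CPM per kilobase (SD, n = 3 for each). Hyou1 was 7.37-fold below Hspa5 per kilobase (log2 ratio -2.88 ± 0.18, SD, n = 3, and -2.11 without length correction). Grpel1, the exchange factor of Hspa9, was 11.8-fold below Hspa9 (log2 ratio -3.56 ± 0.18, SD, n = 3). By edgeR 4 of the 11 tested exchange factors were higher and 4 lower in replicate 3, and 2 higher and 3 lower with the length trend removed. Hyou1 was at a log2 difference of -0.27, and at -0.13 with the trend removed (adjusted p = 0.0219, edgeR). Hsph1 was at -0.25, and at -0.11 with the trend removed, where it did not pass (adjusted p = 0.056, edgeR). Bag1, which was called higher, was lower at -0.12 with the trend removed (adjusted p = 0.0223, edgeR).

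All 7 genes listed for passing clients on or tagging them reached 1 CPM. They were Stip1, St13, Stub1, Tomm70a, Lamp2 and the ubiquitin-conjugating enzyme genes Ube2d2a and Ube2d3. Stip1, which joins HSP70 to HSP90, was at 138 ± 5.68 CPM per kilobase, Lamp2, the lysosomal receptor whose 2A form takes up clients of Hspa8, at 61.2 ± 2.01 CPM and Tomm70a, a mitochondrial receptor for chaperone-bound proteins, at 58.0 ± 5.05 CPM (SD, n = 3 for each). By edgeR 2 of the 7 were higher and 1 lower in replicate 3, and 5 higher and 1 lower with the length trend removed. Stub1, the ubiquitin ligase that tags clients of HSP70, was at 38.5 ± 4.0 CPM per kilobase (SD, n = 3). The exon unions of Ube2d3, Ube2d2a, St13 and Lamp2 were 24499, 11565, 10305 and 9552 bases. Their longest coding transcripts had 3833, 2480, 3346 and 3604. In replicate 3 their log2 differences were 0.12, 0.04, -0.08 and -0.03 as fitted. With the length trend removed they were 0.42, 0.26, 0.12 and 0.16. How far these values rest on the length taken was not tested.

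All 19 ER partners and stress regulators of Hspa5 reached 1 CPM, with a median of 94.4 CPM per kilobase against 9.12 over genes at 1 CPM or more. Hsp90b1, the HSP90 of the ER, led at 1184 ± 29.9 CPM per kilobase, above Hspa5, and Pdia4, a disulfide isomerase, was at 797 ± 21.1 CPM and Calr, a lectin chaperone, at 638 ± 16.9 CPM (SD, n = 3 for each). Ficd, the enzyme that turns BiP off by AMPylation, was the lowest at 2.51 ± 0.0868 CPM per kilobase (SD, n = 3). By edgeR 7 of the 19 were higher in replicate 3 and 5 lower, while with the length trend removed 3 were higher and 6 lower, so the balance turned with that setting. Among the lower was Ern1, the stress sensor that Hspa5 keeps inactive, with 60.2 CPM in replicate 3, against 104 and 99.3 CPM in replicates 1 and 2, a log2 difference of -0.73 (adjusted p = 2.37e-61, edgeR) that was -0.57 with the length trend removed.

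All 12 mitochondrial partners of Hspa9 reached 1 CPM, with a median of 18.9 CPM per kilobase. The chaperonin genes Hspd1 and Hspe1 were at 392 ± 19.3 and 376 ± 40.7 CPM per kilobase, and Dnaja3, the main J-domain protein of the mitochondrial matrix, at 39.2 ± 1.59 CPM (SD, n = 3 for each). By edgeR 7 of the 12 were higher in replicate 3 and 0 lower, and 5 higher and 1 lower, Hspd1, with the length trend removed.

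Of 15 genes known as targets of heat shock factor, 13 reached 1 CPM, while Hspa1a and Hspa1b, which are not in that list, did not. Hsp90ab1 led at 1365 ± 29.9 CPM per kilobase, followed by Hspd1 and Hspe1 (SD, n = 3). Hspb1, a small heat shock protein, had 0 counts throughout, a depth at which 0.0179 CPM over the 3 libraries could still be missed, and Cryab had 0, 0 and 3 counts. Hspb8, a small heat shock protein that works with Bag3 and HSP70, was at 42.5 ± 1.37 CPM per kilobase and Bag3 at 23.2 ± 0.823 CPM (SD, n = 3 for each). By edgeR 3 of the 13 tested were higher and 2 lower in replicate 3, and 2 higher and 3 lower with the length trend removed. Of the heat shock factors, Hsf1 was at 7.10 ± 0.102 and Hsf2 at 4.497 ± 0.0873 CPM per kilobase (SD, n = 3 for each). Hsf4 had 24, 15 and 27 counts and Hsf5 had 9, 10 and 12, both under 1 CPM. In replicate 3 the log2 differences of Hsf1, Hsf2 and Hsf4 were 0.05 ± 0.05, 0.08 ± 0.06 and 0.36 ± 0.365 (SE). With the length trend removed they were 0.19, 0.27 and 0.17. Hsf1 and Hsf2 have exon unions of 7099 and 9606 bases, against 2104 and 2604 in their longest coding transcripts. How far their values rest on the length taken was not tested.

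**Figure D5:**
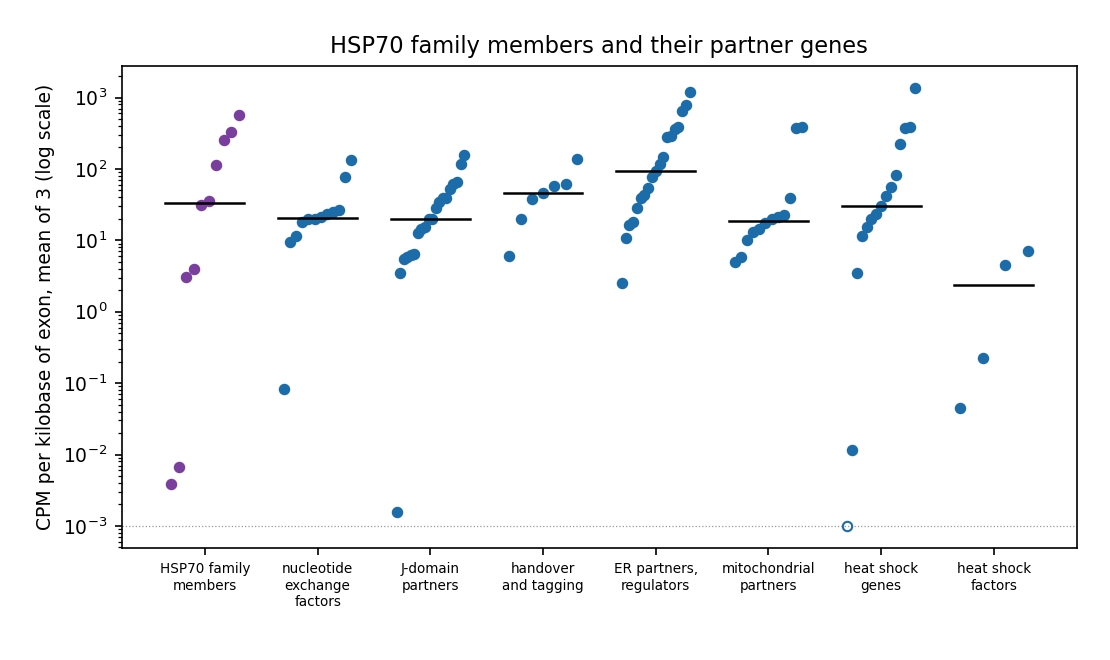
Mean level over 3 libraries of each HSP70 family member and of the genes in each partner list, in CPM per kilobase of exon on a log scale. Black lines mark medians, and the open point on the dotted line is Hspb1, which had 0 counts. The medians run from 2.36 CPM per kilobase for heat shock factors to 94.4 for the ER list, with 33.2 for the family.

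Of 5 other genes of the HSP70 and Hsp110 superfamily, Hyou1 and Hsph1 reached 1 CPM and the other 3 did not. Hspa12a had 13, 7 and 10 counts, Hspa12b had 3, 3 and 2, and Hspa1l was described above. Among the genes nearest to Hspa5 by Euclidean distance of log2 CPM per kilobase over the 3 libraries were Rpl7 and Rpl37, which encode ribosomal proteins, at distances of 0.19 and 0.21. Their means were 531 ± 22.8 and 553 ± 55.2 CPM per kilobase (SD, n = 3 for each). With 3 libraries of 1 group this likeness is one of level.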

How the data were processed

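Gene expression of 5TGM1.BRE cells was measured by sequencing polyadenylated RNA of 3 samples. The authors deposited raw counts per gene symbol, and per the submitters' processing notes they used bcl2fastq, cutadapt 4.2, STAR and mm10. Which program counted the reads, on which annotation and strand, is not given in the sources used here. Depth was 45705994 to 62303493 counts. CPM is the count divided by the library total, times 1000000. Lengths came from GENCODE M21 (GRCm38), with 98.8% of symbols matched. Ratios used counts plus 0.5. Libraries were compared with edgeR 4.0.16 in R 4.3.3 (quasi-likelihood test, TMM, filterByExpr, 1 residual degree of freedom), with DESeq2 1.42.0 as an alternative. These p-values compare libraries, not conditions. The length trend was removed by loess (span 0.3) as an offset. Coding sequences were aligned with MAFFT 7.526, and SciPy 1.17.1 gave the intervals. Members, lists and ratios were chosen with earlier results of these data known. Named genes are all members, genes of the ratios, the 3 highest per kilobase and any at 0 of each list, and the 3 genes nearest to Hspa5; any further gene was picked with its values in view. Not every gene that this rule names is reported here.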

Additional observations from a re-analysis of the deposited data

How the results depend on the processing

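The count of genes at 1 CPM or more was 8, with 8 at a limit of 0.1 CPM, 7 at 10 CPM and 8 without any 1 replicate. Of 91 alternative values for the 13 ratios, 89 kept their direction. Those with a replicate left out could not turn, because all 13 ratios had 1 direction in 3 of 3 libraries. Only the length settings and the pseudocount put the direction to a test. The other 2 values were Hspa13 over Hspa14, at -0.29 on the log2 scale with the longest transcript or the longest coding transcript, against 0.20. Hspa14 then has a length of 1795 in place of 4057 bases. Hspa1a over Hspa1b, on 5 counts in all, ran from -0.87 without replicate 2 to 1.08 without replicate 3. A kept direction does not mean a kept size, and the log2 ratios that moved by over 1.5 times are given beside their results. That of Hspa1a and Hspa1b together to Hspa8 was -14.30, or 20188-fold, with 0.5 added to each count. It was -14.84 with a pseudocount of 0.1 and -15.15 with the longest coding transcript. The 32017-fold value above comes from counts summed over the libraries, with nothing added. Most compartment shares moved by more than 1 SD with the length; the exceptions were the mitochondria with the longest coding transcript and the ER without length correction, at 44.2%. With the longest transcript they were 41.0% for the ER, 26.2% for cytosolic HSP70, 20.5% for mitochondria, 8.23% for Hsp110 genes and 4.04% for Hspa14. With the longest coding transcript they were 37.8, 31.9, 19.0, 7.60 and 3.73%. Without length correction cytosolic HSP70 had 24.0%, Hsp110 genes 11.4%, mitochondria 18.2% and Hspa14 2.10%. Leaving out replicates gave 44.3 to 45.5% for the ER. The number of family genes called lower in replicate 3 held with RLE scaling or no filter and rose without scaling or with DESeq2. With the length trend removed it fell, as given above. The share of all genes called is not given here for each setting, so these shifts describe the calls only. Differences near 0 turned sign: Hspa14 was at 0.00618 in replicate 1 and -0.0199 in replicate 3 without scaling and at -0.0026 in replicate 2 without a filter, and with the length trend removed Hspa2 was at 0.0138 and Hspa13 at -0.0208 in replicate 2. Leaving out a replicate left no residual degrees of freedom for the tests between libraries, so they were not refitted. No paired analysis was possible because there is 1 group. Depth limits Hspa1a and Hspa1b, whose 0 to 2 counts per library are too few to fix their level. Whether these few reads came from the 2 genes was not tested.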

Other observations

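The ER stress element found before Hspa5 was also present before Calr, Canx, Dnajc3, Hsp90b1 and Pdia6, or 5 of the 15 ER partner genes with a RefSeq promoter entry, against 0.130% of all genes with one. Of the 12 heat shock genes with an entry, 5 held GAANNTTC (Dnaja1, Fkbp4, Hspb1, Hspd1 and Hspe1), against 7.73% of all genes. Hspb1, with GAANNTTC, had 0 counts, and Hspa1a and Hspa1b were near 0 with theirs. Hspd1 and Hspe1 stood at 392 and 376 CPM per kilobase, and Dnaja1 and Fkbp4 at 15.6 and 82.5 CPM per kilobase. Hspd1 and Hspe1 also held TTCNNGAA and the 3-unit element, which Dnaja1, Fkbp4, Hspb1, Hspa1a and Hspa1b lacked. The spans of Hspd1 (chr1:55077835-55088243, minus strand) and Hspe1 (chr1:55088132-55091307, plus strand) overlap, so their matches may lie in the same sequence. Exact letter matches in 250 bases miss elements farther away or with other letters, and both lists were written from knowledge of such targets, so these counts are descriptions only.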
